A study of Mus musculus with 17 samples.

Results

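The genes described here are 10 targets of canonical Wnt signalling that also feed back on the pathway or read out its activity in the intestinal crypt. The rule names them by symbol and uses no measured value, although earlier results of these data were known when it was set, and its members are Axin2, Nkd1, Rnf43, Znrf3, Lgr4, Notum, Sp5, Myc, Ephb2 and Ephb3, which make 10 of the 26422 genes in the deposited tables. All 10 were detected. They were followed in single cells of mouse small intestinal organoids, three-dimensional cultures grown from crypts that had been isolated from male and female wild-type C57BL/6 mice between 1 and 6 months of age.

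Every medium in the series held EGF, Noggin, R-spondin 1 (the group called ENR) and CHIR99021, an inhibitor of the kinase GSK3 that switches on Wnt signalling downstream of its receptors. The stem-cell enriching medium, ENR+CV, added valproic acid, and the Paneth-differentiating medium, ENR+CD, added the Notch pathway inhibitor DAPT in its place. In the treated arm, ENR+CD also held 160 nM KPT-330, an inhibitor of the nuclear exporter XPO1. There were 2 libraries from ENR+CV at day 0, 7 control libraries from ENR+CD and 8 from ENR+CD with KPT-330, at days 0.25, 1, 2, 3, 4 and 6, and a single library stood for most combinations of day and arm. Cells of many organoids were pooled in each library, and the sources used here do not say whether replicate numbers mark separate cultures or mice, so the p-values below measure the spread between these libraries, which may be technical. The study's reporting summary names single-cell sequencing as the exception to its independent biological replication.

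The 17 libraries held 19877 cells that the authors kept, with 531 to 1547 cells, 3458887 to 12433109 unique molecular identifiers (UMIs) and a median of 2676 to 8463 UMIs per cell in each. A total of 14 cell barcodes occurred in more than 1 library, which touched 28 cells. The 7 epithelial markers were all detected and summed to 37.8 to 54.2 UMIs per 10000 UMIs in every library. Markers of fibroblasts summed to at most 0.0651, of immune cells to at most 0.722 and of endothelium to at most 0.0282 UMIs per 10000, with the highest immune sum in the KPT-330 arm. The immune list includes Lyz2, which was also among the top 10 genes of a Paneth-like cluster at resolution 0.8. That sum is therefore not specific to immune cells. Tuft cell markers summed to 0.0213 to 0.0784, and no marker on these lists was at 0 in the series.

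When Wnt ligands bind Frizzled and LRP receptors, or when GSK3 is inhibited, β-catenin escapes degradation, enters the nucleus and switches on genes with TCF/LEF factors. Several of those targets damp the pathway again, inside the cell, at the receptor or outside the cell, and so are widely used to gauge it. At the crypt base, Wnt signalling maintains Lgr5-positive stem cells and Paneth cell maturation, and it orders cells along the crypt through Eph receptors.

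The members lie on 6 chromosomes of the mouse genome, with positions given here from GENCODE vM21 on GRCm38. Of these, 4 share chromosome 11, where Znrf3 lies at chr11:5276324-5444847 on the minus strand, Rnf43 at chr11:87662722-87735539 on the plus strand, Axin2 at chr11:108920349-108950783 on the plus strand and Notum at chr11:120653788-120661175 on the minus strand. Sp5 lies at chr2:70474923-70477729 and Lgr4 at chr2:109917647-110014257, both on the plus strand. Ephb2 lies at chr4:136647539-136835988 on the minus strand, Nkd1 at chr8:88521354-88594884, Myc at chr15:61985391-61990374 and Ephb3 at chr16:21204755-21223305, these 3 on the plus strand.

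RefSeq (GRCm38.p6) gave the 250 bases before the transcription start for 7 of the 10 members, in 8 sequences since Rnf43 has 2 starts, and Znrf3, Notum and Myc were not matched. They were searched for the TCF/LEF core in the forms CTTTGAT and CTTTGAA and, for the other strand, ATCAAAG and TTCAAAG. The forms of opposite strands can overlap in part, and a window was counted once however many it held. Of all 32851 such sequences in the mouse table, 2457 (7.48%) held at least 1 of them. Among the members 1 window did, that of Sp5, with its first base 104 bases before the start, shown here with the match in capitals. The window of Axin2 is shown beside it because both genes fell with KPT-330 below, and it holds none of these forms, which says nothing about binding elsewhere.
Sp5, chr2:70474673-70474922, plus strand: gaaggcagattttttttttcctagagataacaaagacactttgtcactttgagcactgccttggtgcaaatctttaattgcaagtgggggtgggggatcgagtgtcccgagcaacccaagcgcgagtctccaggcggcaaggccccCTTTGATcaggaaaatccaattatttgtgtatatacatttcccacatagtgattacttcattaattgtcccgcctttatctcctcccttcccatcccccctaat
Axin2, chr11:108920099-108920348, plus strand: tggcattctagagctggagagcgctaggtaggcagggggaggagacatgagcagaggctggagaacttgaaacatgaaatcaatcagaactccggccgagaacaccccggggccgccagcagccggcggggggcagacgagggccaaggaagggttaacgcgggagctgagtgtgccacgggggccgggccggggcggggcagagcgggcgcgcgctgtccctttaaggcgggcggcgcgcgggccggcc

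The first question was how the members moved when organoids left ENR+CV for ENR+CD. Between day 0 and days 2 to 4, 7 of the 10 rose and none fell, against 40.0% of all 12844 genes tested that changed in either direction. The rise was largest for Notum and Nkd1, and smaller for Sp5, Rnf43, Znrf3, Ephb3 and Axin2. At day 6, 7 members were higher than at day 0 and Ephb2 was lower, against 38.2% of all genes. Within the first day no member passed the test, against 0.179% of all genes.

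Values below are UMIs of a gene per 10000 UMIs of its library over all kept cells, in the order ENR+CV replicates 1 and 2, then control days 0.25, 1, 2, 3, 4 and 6 (replicates 1 and 2), then KPT-330 days 0.25, 1, 2, 3 (replicates 1 and 2), 4 and 6 (replicates 1 and 2). Fold changes are log2 values from edgeR's quasi-likelihood test on summed counts with trimmed-mean scaling (TMM), with the standard error after ±, and adjusted p-values are Benjamini-Hochberg over all genes tested. A gene was called where its adjusted p was under 0.05. The 7 control libraries serve both the medium and the KPT-330 comparisons, so these are not independent of each other. In sums over a library, fewer cells of a type and less RNA per cell cannot be told apart.

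Axin2, the scaffold of the complex that marks β-catenin for destruction, measured 2.17 and 2.87 in ENR+CV, 2.00, 2.20, 3.19, 3.54, 4.14, 2.71 and 3.60 in control ENR+CD, and 1.93, 1.90, 2.33, 1.64, 1.68, 1.82, 1.21 and 1.73 with KPT-330. Control values from day 2 on overlapped with day 0 in 1 library of 5, and all 5 were above every KPT-330 library. Against day 0, Axin2 rose by days 2 to 4 (0.55 ± 0.18, edgeR adjusted p = 0.0347) and was 0.47 higher at day 6 (adjusted p = 0.0826).

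Nkd1, which binds Dishevelled and restrains Wnt signalling inside the cell, measured 0.225 and 0.240 in ENR+CV, 0.174, 0.523, 2.15, 2.299, 3.84, 2.69 and 3.43 in control ENR+CD, and 0.182, 0.370, 1.28, 1.52, 1.15, 1.74, 0.788 and 1.31 with KPT-330. The control libraries from day 2 on lay above day 0 and above every KPT-330 library without overlap. The rise was 12.01-fold at days 2 to 4 (3.59 ± 0.45, edgeR adjusted p = 0.000898) and 14.5-fold at day 6 (3.85 ± 0.47, adjusted p = 0.00128).

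Rnf43 and Znrf3 are membrane ubiquitin ligases that remove Frizzled from the cell surface. Rnf43 measured 0.808 and 0.931 in ENR+CV, 0.924, 0.979, 1.49, 1.77, 2.27, 1.53 and 2.21 in control ENR+CD, and 1.21, 0.867, 1.27, 1.03, 1.14, 1.18, 0.920 and 1.13 with KPT-330. Its controls from day 2 on were above day 0 and above all KPT-330 libraries, and the rise was 1.10 ± 0.20 at days 2 to 4 (edgeR adjusted p = 0.00293) and 1.24 ± 0.22 at day 6 (adjusted p = 0.00273).

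Znrf3 measured 0.377 and 0.416 in ENR+CV, 0.372, 0.468, 0.664, 0.844, 0.797, 0.611 and 0.706 in control ENR+CD, and 0.477, 0.416, 0.519, 0.552, 0.539, 0.630, 0.484 and 0.639 with KPT-330. Controls from day 2 on exceeded both day 0 libraries, and the arms overlapped. The rise was 0.98 ± 0.16 at days 2 to 4 (edgeR adjusted p = 0.0019) and 0.87 ± 0.17 at day 6 (adjusted p = 0.00461).

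Lgr4, a receptor for the R-spondins that hold Rnf43 and Znrf3 in check, measured 2.48 and 1.94 in ENR+CV, 2.39, 1.91, 2.71, 3.68, 3.61, 3.24 and 3.19 in control ENR+CD, and 2.54, 1.95, 2.43, 2.26, 2.21, 2.26, 1.59 and 2.18 with KPT-330. The 5 later controls were above day 0 and above all KPT-330 libraries. The difference from day 0 lay at the threshold, at 0.60 ± 0.22 for days 2 to 4 (edgeR adjusted p = 0.0501) and 0.67 ± 0.23 for day 6 (adjusted p = 0.046).

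Notum, a secreted enzyme that strips the lipid from Wnt ligands and so inactivates them, was almost absent at the start, with 2 and 3 UMIs in the whole of the ENR+CV libraries. In control ENR+CD it had 1, 1, 34, 69, 220, 616 and 429 UMIs, and with KPT-330 it had 1, 0, 24, 80, 77, 134, 65 and 272. Per 10000 UMIs of the library the controls measured 0.00125, 0.00204, 0.0332, 0.0860, 0.314, 0.4955 and 0.967. Those with KPT-330 measured 0.00219, 0, 0.0206, 0.0889, 0.115, 0.317, 0.1455 and 0.6795, and the arms overlapped. Pooled by window, the level was 0.00427 UMIs per 10000 at day 0 (exact 95% Poisson interval 0.00139 to 0.00998) and 0.619 at day 6 (0.582 to 0.658). These intervals cover counting error alone. The ratio to day 0 was 29.9 at days 2 to 4 (exact counting interval 12.7 to 92.7) and 145.0 at day 6 (61.9 to 447.0). edgeR called both windows (adjusted p = 0.00841 and 0.00175), and every later control library was above both day 0 libraries.

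Sp5, a transcription factor that is itself a direct target and limits other targets, measured 0.252 and 0.370 in ENR+CV, 0.299, 0.454, 0.932, 0.980, 1.15, 0.845 and 0.805 in control ENR+CD, and 0.344, 0.361, 0.567, 0.589, 0.426, 0.381, 0.271 and 0.352 with KPT-330. The 5 later controls stood above day 0 and above every KPT-330 library. Its rise was 1.74 ± 0.21 at days 2 to 4 (edgeR adjusted p = 0.00079) and 1.56 ± 0.22 at day 6 (adjusted p = 0.00145).

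Myc, the growth-promoting transcription factor, measured 0.877 and 0.847 in ENR+CV, 0.506, 0.694, 0.613, 0.643, 0.690, 0.513 and 0.647 in control ENR+CD, and 0.451, 0.567, 0.536, 0.348, 0.379, 0.535, 0.352 and 0.525 with KPT-330. All ENR+CD libraries lay under the ENR+CV pair. The difference from day 0 did not pass the test at days 2 to 4 (-0.39 ± 0.17, edgeR adjusted p = 0.0847) or day 6 (-0.44 ± 0.18, adjusted p = 0.0839).

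Ephb2 and Ephb3 are receptors for B-type ephrins that position cells along the crypt. Ephb2 measured 1.60 and 2.01 in ENR+CV, 1.57, 1.34, 1.12, 1.34, 1.51, 1.08 and 1.24 in control ENR+CD, and 1.28, 1.19, 0.860, 0.793, 0.828, 0.990, 0.853 and 1.19 with KPT-330. All ENR+CD libraries lay under both day 0 libraries, and the arms overlapped. It fell by 0.49 ± 0.18 on the log2 scale at day 6 (edgeR adjusted p = 0.0495) and the difference at days 2 to 4 was -0.42 (adjusted p = 0.0587).

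Ephb3 took the opposite course, with 0.388 and 0.578 in ENR+CV, 0.294, 0.499, 0.609, 1.07, 1.09, 0.814 and 0.904 in control ENR+CD, and 0.306, 0.393, 0.417, 0.922, 0.778, 0.796, 0.681 and 0.982 with KPT-330. The arms overlapped, and controls from day 2 on were above day 0. Its rise was 0.96 ± 0.28 at days 2 to 4 (edgeR adjusted p = 0.0222) and 0.98 ± 0.30 at day 6 (adjusted p = 0.0289).

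**Figure D1:**
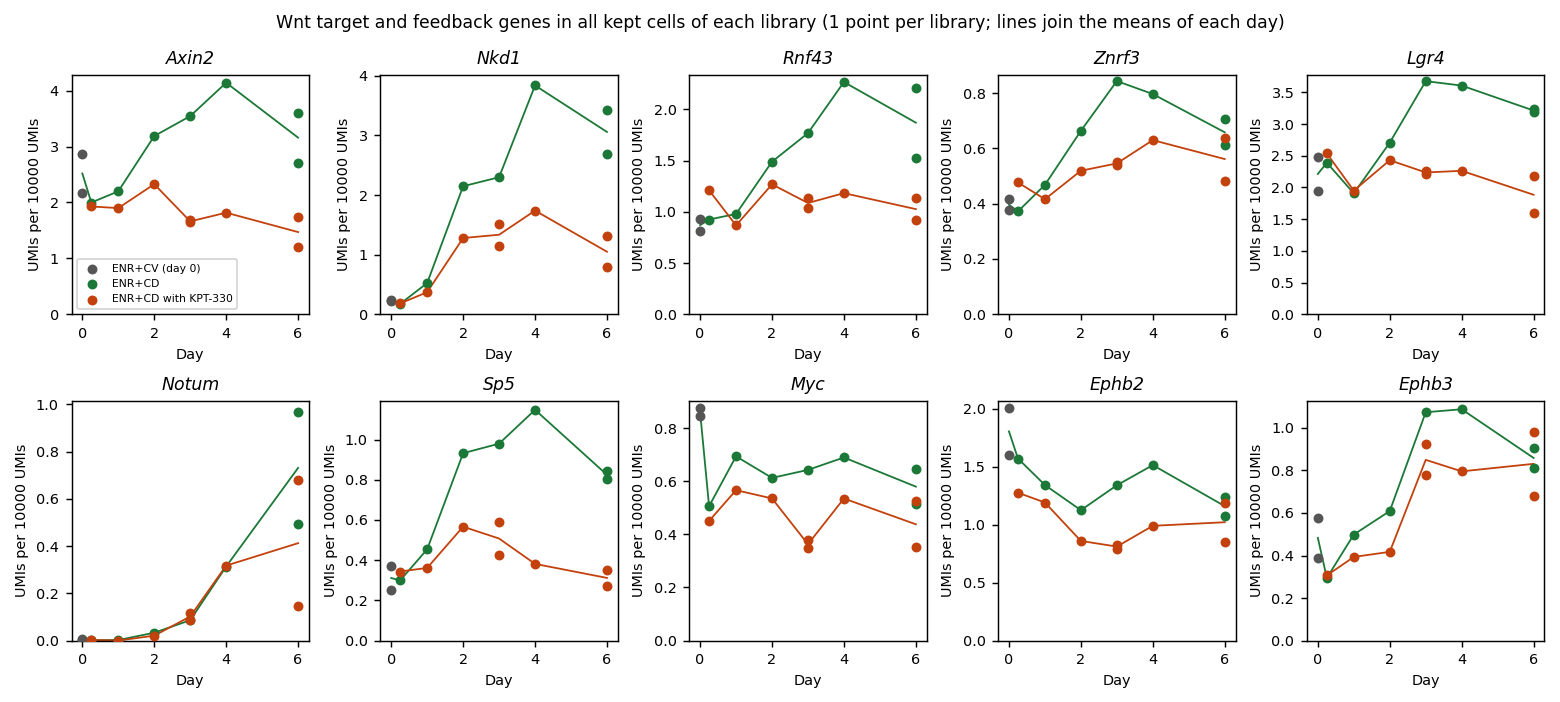
Level of each gene (vertical axes, UMIs per 10000 UMIs over all kept cells) against day (horizontal axes), with 1 point per library in ENR+CV, ENR+CD and ENR+CD with KPT-330 and lines joining the means of each day. Nkd1 climbs from 0.225 and 0.240 at day 0 to 3.43 in a control library of day 6, while its KPT-330 libraries stay at or under 1.74.

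With all 7 control libraries set against day 0 as 1 group, edgeR called 0 members (2.07% of all genes, 3782 of 12844 genes at an unadjusted p under 0.05). DESeq2 called 5 there, with Nkd1, Notum, Rnf43 and Sp5 higher and Myc lower, and without the day 0.25 control library edgeR called 7. The first-day window gave 0 by edgeR and DESeq2, with 2155 genes at an unadjusted p under 0.05. Leaving out ENR+CV replicate 2 reduced the 7 calls of days 2 to 4 to 4 and the 8 calls of day 6 to 5, and leaving out either control library of day 6 also left 5 there. Nkd1, Sp5, Rnf43 and Znrf3 were called in 14 of 14 alternative runs in both windows. At days 2 to 4 Notum was called in 12 of them, Ephb3 in 10 and Axin2 in 8. At day 6 Notum was called in 14, Ephb3 in 9, Lgr4 in 7 and Ephb2 in 6.

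The other genes of the pathway, taken from lists of known components, moved in both directions at days 2 to 4 against a median of 0.03 over all genes (log2 fold change against day 0). Each list is set beside the 40.0% of all genes called in this window, and no difference from that share was tested. Of 10 tested Wnt ligand and secretion genes 4 rose and 0 fell, which is the share of all genes, with a median of 1.5. Wnt3, the ligand made by Paneth cells, rose by 2.78, and Wnt6, Rspo4 and Wnt10a went from 2 UMIs each at day 0 to 171, 68 and 37 UMIs in the 3 control libraries of days 2 to 4. These counts come from 11696972 UMIs in all at day 0 and 25281144 at days 2 to 4. The fitted rises were 5.26, 3.97 and 3.12. Wnt10a lay at the threshold (edgeR adjusted p = 0.0499) and was called in 7 of 14 alternative runs. Of 6 secreted and other inhibitors 3 rose and 0 fell, a greater share than that of all genes but from 6 genes, Dact1 by 3.44, Wif1 by 3.09 and Apcdd1 by 1.10.

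Receptors, cytoplasmic components and ephrin and Eph partners had called shares under the 40.0% of all genes. Among 15 receptors 2 rose, Fzd9 (3.23) and the stem cell marker Lgr5 (1.14), and 2 fell, Fzd4 (-1.14) and Fzd7 (-0.54). The 14 nuclear factors gave 6 higher and 1 lower, above the share of all genes, with Bcl9 (1.21), Tcf7l2 (1.14), Lef1 (1.37) and the co-repressor Tle1 (0.81) named by smallest p. Of 16 cytoplasmic components 1 rose, Dvl3 (0.77), and of 6 ephrin and Eph partners 1 rose, Epha2 (0.61). Of 20 other known targets 10 rose and 3 fell, also above that share: Prox1 rose by 3.50, and Etv4 (-2.77), Ccnd1 (-2.66), the cell-cycle gene cyclin D1, and Cd44 (-1.75) fell. Lgr5, Tcf7 and Lef1 stand in a pair of these lists each, so the counts are not exclusive.

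The next question was what KPT-330 did to the members in ENR+CD. Over 15 libraries with time point as a term, Axin2, Nkd1 and Sp5 fell and no member rose, that is 3 of 10 against 28.6% of all 12812 genes, a share near that of all genes. Axin2 changed by -0.50 ± 0.11 (edgeR adjusted p = 0.00525), Nkd1 by -0.65 ± 0.14 (adjusted p = 0.00443) and Sp5 by -0.63 ± 0.14 (adjusted p = 0.00626). The other 7 did not pass the test, with values from -0.23 for Rnf43 to 0.02 for Ephb3, and the median of all genes was -0.00. DESeq2 called the same number, 3.

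By window, 0 members were called on the first day by edgeR or DESeq2, against 0.109% of all genes (1199 at an unadjusted p under 0.05). At days 2 to 4 (23.9% of all genes) the called members were Axin2 (-0.62 ± 0.13, edgeR adjusted p = 0.00672), Nkd1 (-0.57 ± 0.15, adjusted p = 0.0162) and Sp5 (-0.75 ± 0.15, adjusted p = 0.00616). At day 6 (3.78% of all genes) Axin2 fell by 0.70 (edgeR adjusted p = 0.0398), Nkd1 by 1.16 (adjusted p = 0.0107) and Sp5 by 1.01 (adjusted p = 0.0232) on the log2 scale. The day 6 calls rest on 2 libraries per arm: 1 was left without control replicate 1, and 0 without control replicate 2 or KPT-330 replicate 1.

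Scaled to library totals instead, the median of all genes lay at -0.27, 8.75% of called genes were higher in place of 50.3%, and 7 members were called lower. These were Axin2, Nkd1, Sp5, Rnf43 (-0.50), Lgr4 (-0.44), Myc (-0.40) and Ephb2 (-0.39). The split of called genes moved likewise at days 2 to 4 (12.4% higher in place of 53.3%, with 9 members lower) and at day 6 (3.49% in place of 56.4%, with 5 members lower). The share of all genes called on this scale is not given here, so these counts are not read as a result about the members. Set against the median over all days, Znrf3 at -0.26 and Ephb3 at -0.25 moved no more than the middle gene. The direct ratio of the arms on each day, which is also on library totals, was below 0 on 6 of 6 days for Axin2, Myc and Ephb2. For Axin2 the log2 ratio ran -0.05, -0.20, -0.44, -1.05, -1.15 and -1.05 over days 0.25, 1, 2, 3, 4 and 6, for Nkd1 0.04, -0.41, -0.70, -0.74, -1.10 and -1.46, and for Sp5 0.15, -0.26, -0.63, -0.83, -1.37 and -1.17.

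These sizes were greater on later days, but the difference between days 2 to 6 and the first day did not pass the test. The first-day libraries all carry replicate number 1, and those of days 2 and 4 all carry number 2. Stage and replicate number cannot be told apart between those days. edgeR called 0 members for it (0% of all genes, 1283 at an unadjusted p under 0.05), and so did DESeq2. Sp5 came closest, at -0.84 (unadjusted p = 0.00447, edgeR adjusted p = 0.368), followed by Axin2 at -0.58 (unadjusted p = 0.00902, adjusted p = 0.391).

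**Figure D2:**
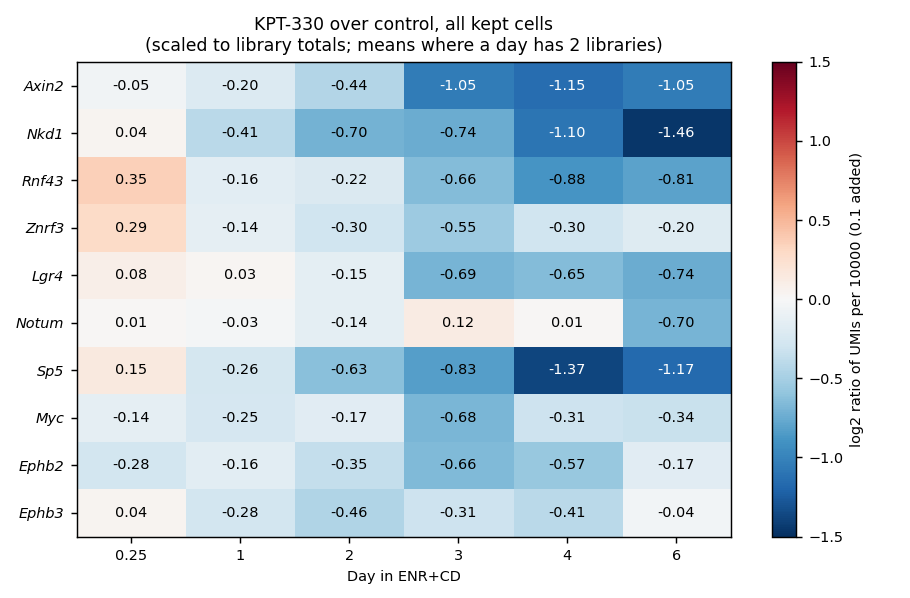
Log2 ratio of KPT-330 to control (colour, UMIs per 10000 with 0.1 added, scaled to library totals) for each gene (vertical axis) and day in ENR+CD (horizontal axis), from means where a day has more than 1 library in an arm. The most negative value is that of Nkd1 at day 6, -1.46, and Axin2, Nkd1 and Sp5 lie at -0.74 or lower from day 3 on.

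In the rest of the pathway, KPT-330 lowered 14 of 20 other known targets and raised 3, with a median of -0.46, against 28.6% of all genes called in this comparison, 1841 of them higher and 1820 lower. The stem cell factor Ascl2 was at -1.12 and Tcf7 at -0.62, while Odc1, the polyamine synthesis enzyme, was at 0.88 and Mmp7, the protease that Paneth cells use to activate defensins, at 0.95. Of 6 inhibitors 3 fell and 0 rose (median -0.66): Wif1 by 2.08 and Dact1 by 0.94 on the log2 scale, and Sfrp5, which had 9, 27 and 25 UMIs in the controls of the first day, days 2 to 4 and day 6 against 0, 2 and 1 with KPT-330. Receptors gave 2 higher and 6 lower of 15 (median -0.28), with Fzd5 (0.50), Fzd9 (0.47), Fzd7 (-0.77) and Ptk7 (-0.69) named by smallest p.

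The remaining lists lay near or under the 28.6% of all genes. Nuclear factors gave 0 higher and 3 lower of 14 (median -0.11), which were Tcf7, Lef1 (-0.44) and Sox17 (-2.13). Ligand and secretion genes gave 1 higher of 10, Wls at 0.25, which carries Wnt ligands to the surface and lay at -0.0199 when scaled to library totals. Cytoplasmic components gave 1 lower of 16, Csnk1e at -0.26. The 6 ephrin and Eph partners, ligands of Ephb2 and Ephb3 among them, gave 2 higher and 0 lower (median 0.37), Efnb2 at 0.53 and Efna1 at 0.71.

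Which cells held the members was asked by cell class. Cells were clustered without the members or the listed pathway genes among the variable genes (47 genes taken out, 2953 used), and the 13 clusters were named from markers drawn from the study's own lists. This gave 1903 stem I-like, 2225 stem II-like, 2301 stem III-like (proliferating), 1304 early secretory-like, 621 early enterocyte-like, 2687 enterocyte-like, 4473 Paneth-like and 2458 enteroendocrine-like cells. A cluster of 1905 cells led by Fcgbp, Ccl9, Agr2, Spink4, Muc2 and Tff3 stayed unnamed. The names were rebuilt here and need not match those of the study, and class levels are given with no test. The stem I markers include Lgr5, Smoc2 and Tnfrsf19, which are also on the list of other known targets. High levels of Wnt targets in that class are therefore in part a product of its naming.

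Class means below were not matched for day, and most members rose between day 0 and the later days. The day 0.25 control library had 1 stem I-like cell and is not in that mean. It did enter the stem II-like (311 cells) and stem III-like (599 cells) means. Paneth-like means hold days 2 to 6 alone, and early enterocyte-like means hold no day after day 2. The order of classes therefore mixes class with day. In control ENR+CD libraries with at least 20 cells of a class, stem I-like cells had the highest mean for 7 of the 10 members. Axin2 measured 7.97 ± 0.946 UMIs per 10000 there (SD, n = 6 libraries), 5.49 ± 1.95 in stem II-like (n = 6), 4.63 ± 1.92 in stem III-like (n = 7) and 3.90 ± 1.15 in early secretory-like cells (n = 5). It measured 3.61 ± 0.645 in enteroendocrine-like (n = 7), 2.14 ± 1.09 in Paneth-like (n = 5) and 0.274 ± 0.184 in enterocyte-like cells (n = 7). The stem I-like range of Axin2, 6.71 to 9.07, overlapped with that of stem II-like cells and not with those of the Paneth-like or enterocyte-like cells. Nkd1 had the same order at its ends, 6.80 ± 3.14 in stem I-like against 0.0862 ± 0.0792 in enterocyte-like cells, and 2.13 ± 0.885 in Paneth-like cells. The stem I-like range of Nkd1, 1.37 to 10.3, overlapped with that of every other class but the early enterocyte-like and enterocyte-like cells. Stem III-like cells ran from 0.152 to 5.54, early secretory-like cells from 0.356 to 4.70 and Paneth-like cells from 1.32 to 3.55.

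For the receptor feedback genes the stem I-like means were 4.26 ± 0.919 for Rnf43, 1.31 ± 0.244 for Znrf3 and 6.74 ± 1.40 for Lgr4, and Sp5 had 2.12 ± 0.382 (n = 6 each). Notum stood at 1.37 ± 1.73 in stem I-like cells, from 0 in the library of day 1 to 4.30 at day 6, while it had 0.189 ± 0.211 in enteroendocrine-like, 0.104 ± 0.0417 in Paneth-like and 0.00508 ± 0.0134 in enterocyte-like cells.

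Myc and Ephb2 were highest in stem II-like cells, Myc at 1.25 ± 0.415 against 0.927 ± 0.129 in stem I-like cells, and Ephb2 at 2.20 ± 0.590 against 2.00 ± 0.549 in enteroendocrine-like and 1.54 ± 0.316 in stem I-like cells, with ranges that overlapped between these neighbours. Ephb3 differed from the other members in its order of classes: it measured 1.94 ± 0.711 in enteroendocrine-like, 0.991 ± 0.168 in Paneth-like and 0.470 ± 0.106 in stem I-like cells, and every enteroendocrine-like library (1.08 to 2.96) was above every stem I-like one (0.378 to 0.653). Enterocyte-like cells had the lowest or the lowest but 1 mean of the 9 classes for each member.

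**Figure D3:**
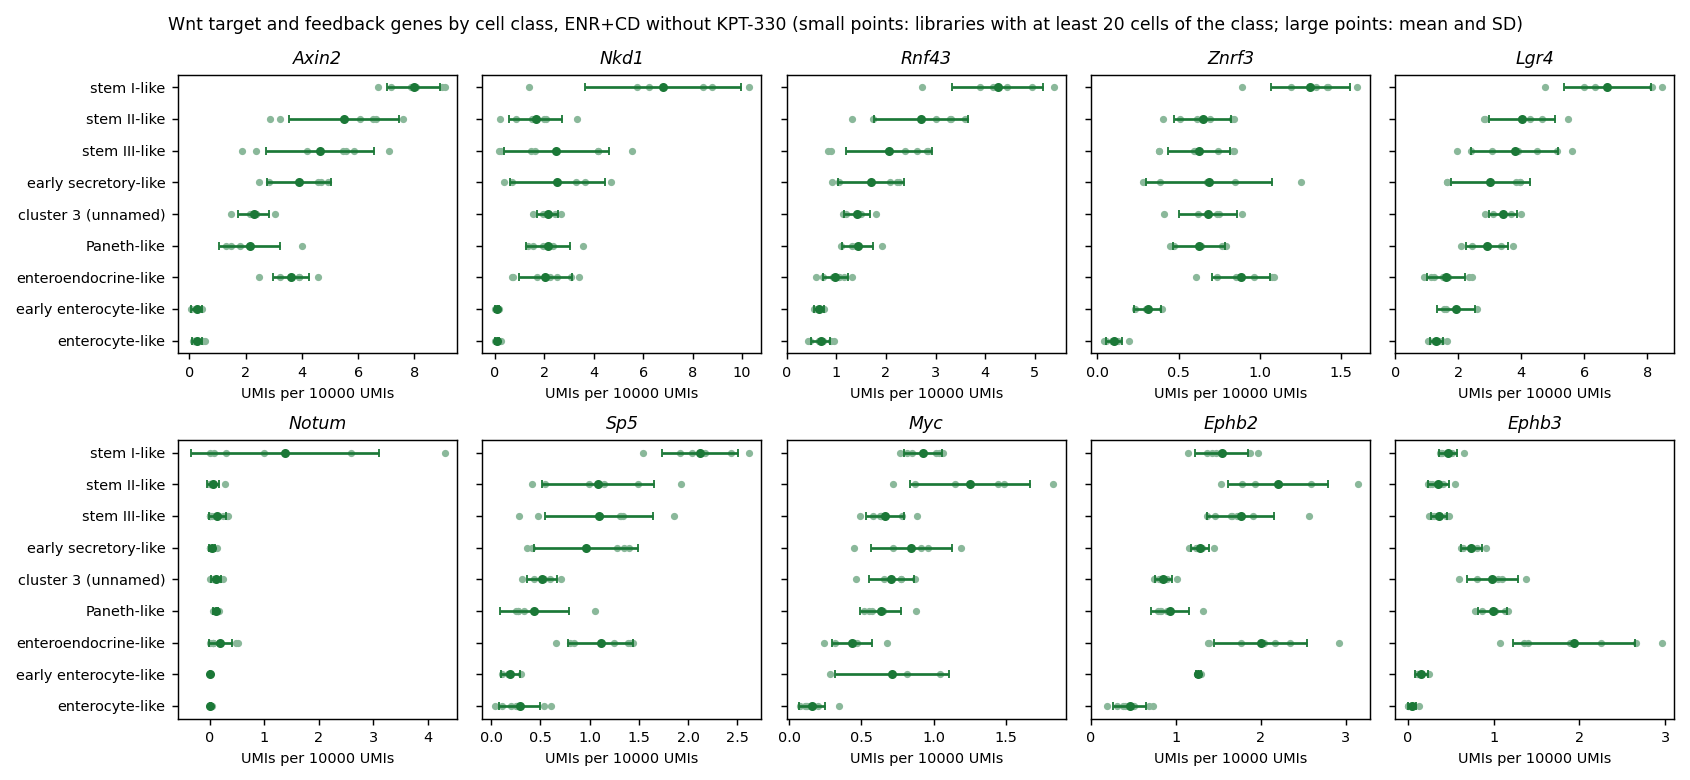
Level of each gene (horizontal axes, UMIs per 10000 UMIs) in each cell class (vertical axes) of ENR+CD without KPT-330, with small points for libraries with at least 20 cells of the class and large points with bars for their mean and SD. Axin2 has a mean of 7.97 in stem I-like and 0.274 in enterocyte-like cells, whereas the highest mean of Ephb3 is 1.94 in enteroendocrine-like cells. The days behind a mean differ between classes.

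The shares of several classes moved with both comparisons. That of stem I-like cells was 0 and 0.205% of cells at day 0 and 10.6, 21.2, 28.2, 13.4 and 21.5% in the control libraries of days 2, 3, 4 and 6, against 9.11, 3.91, 9.06, 8.96, 1.20 and 6.79% with KPT-330 on those days, where days 3 and 6 have 2 libraries. Enteroendocrine-like cells, the class with the highest Ephb3, made up 1.32 and 2.87% of cells at day 0, 16.5 to 23.9% in the 5 controls of days 2 to 6 and 6.1 to 23.4% in the 6 KPT-330 libraries of those days. Paneth-like cells, the usual source of Wnt3 and Mmp7, went from 0.565 and 0.751% at day 0 to 48.5 and 41.7% in the controls of day 6, against 65.0 and 58.6% with KPT-330. Stem I-like cells are the class with the highest mean Axin2, Nkd1 and Sp5, in means not matched for day. The part of these shares in the changes over all cells was not tested.

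The members were next tested within the stem I-like class, and the outcome was not tested against that over all cells. In 10 libraries of days 2 to 6 with at least 20 such cells, 9 members were not called and Notum rose, 1 of 10 against 3.52% of 9450 genes. Axin2 measured 7.87, 8.04, 9.07, 7.16 and 8.98 in the controls of days 2, 3, 4 and 6 and 7.48, 7.39, 8.29, 9.20 and 7.19 with KPT-330, and the difference was -0.01 ± 0.12. Nkd1 measured 5.74, 6.25, 8.77, 8.40 and 10.3 against 4.68, 6.06, 7.88, 9.62 and 9.77, with a difference of 0.09 ± 0.13. The arms overlapped for both genes, and Sp5 lay at -0.24 ± 0.14 (edgeR adjusted p = 0.464). A p that misses the threshold does not show that the arms are alike.

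Notum had 6, 40, 164, 382 and 357 UMIs in the stem I-like cells of the controls at days 2, 3, 4 and 6, and 13, 8, 53, 107 and 244 with KPT-330 at days 2, 3 (replicates 1 and 2), 4 and 6. Per 10000 UMIs these were 0.0690, 0.302, 0.994, 2.58 and 4.30 in the controls and 0.169, 0.274, 1.27, 4.10 and 11.6 with KPT-330. Values climbed with the day in both arms. The KPT-330 library was above every control of its day on days 2, 4 and 6, and on day 3 the 2 libraries lay on either side of the control. The difference was 3.53-fold (1.82 ± 0.20, edgeR adjusted p = 1.01e-07), DESeq2 gave 1.71 (adjusted p = 0.00519), and each alternative run called it, with values from 1.68 to 1.96. Day 6 had 68 stem I-like cells in the KPT-330 library used, and the other library of that arm and day had 11 and was left out.

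No member was called in the other classes tested. This covered stem III-like cells of days 0.25 to 2 (0.169% of all genes called, 812 at an unadjusted p under 0.05), enterocyte-like cells (3.23%, 1244), Paneth-like cells (3.38%, 1591) and enteroendocrine-like cells (2.42%, 1370), and DESeq2 called 0 members in each of them. Notum was too low to be tested in the first pair of classes. Stem II-like, early secretory-like and early enterocyte-like cells and the unnamed cluster were not tested. In that cluster Nkd1 ran from 1.555 to 2.656 in 5 control libraries and from 0.193 to 1.46 in 7 with KPT-330, which include a library of day 1. The arms overlapped there for Axin2 (1.49 to 3.03 against 0.899 to 2.50) and Sp5 (0.309 to 0.713 against 0.129 to 0.591). In Paneth-like cells Nkd1 lay at -0.50 ± 0.15 (edgeR adjusted p = 0.0837) and passed the test with a replicate block (adjusted p = 0.00434). In enteroendocrine-like cells Sp5 lay at -0.50 ± 0.16 (adjusted p = 0.107) and passed with the block (adjusted p = 0.0264).

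Whether the KPT-330 response of stem I-like cells differed from that of other classes in the same 10 libraries was tested with the library and a class term per time point in the fit. Against Paneth-like cells, where Notum was at -0.41 ± 0.27, Notum differed by 2.28 ± 0.34 (edgeR adjusted p = 2.54e-05) and Nkd1 by 0.61 ± 0.16 (adjusted p = 0.0269), 2 of 10 members against 1.49% of all genes. With each library left out in turn, the Nkd1 call was lost in 7 of the 10 fits (0.48 to 0.79, adjusted p up to 0.417). A library alone in its arm on a day took that whole day with it. Both fits of day 2 are therefore the same fit, as are both of day 4. The call stayed without all of day 3, without KPT-330 replicate 1 of day 3 and without control replicate 2 of day 6. Against enteroendocrine-like cells Notum differed by 2.19 ± 0.40 (adjusted p = 0.00532), 1 of 10 against 0.261%. Without the KPT-330 library of day 6, and day 6 with it, these were 2.05 (adjusted p = 0.0572) for Notum and 0.48 (adjusted p = 0.417) for Nkd1 against Paneth-like cells, and 0.77 (adjusted p = 0.817) for Notum against enteroendocrine-like cells. With 1 class term for all days in place of a term per day, the Notum differences were 1.32 ± 0.70 (adjusted p = 0.64) and 1.71 ± 0.64 (adjusted p = 0.905), and 0 members were called.

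**Figure D4:**
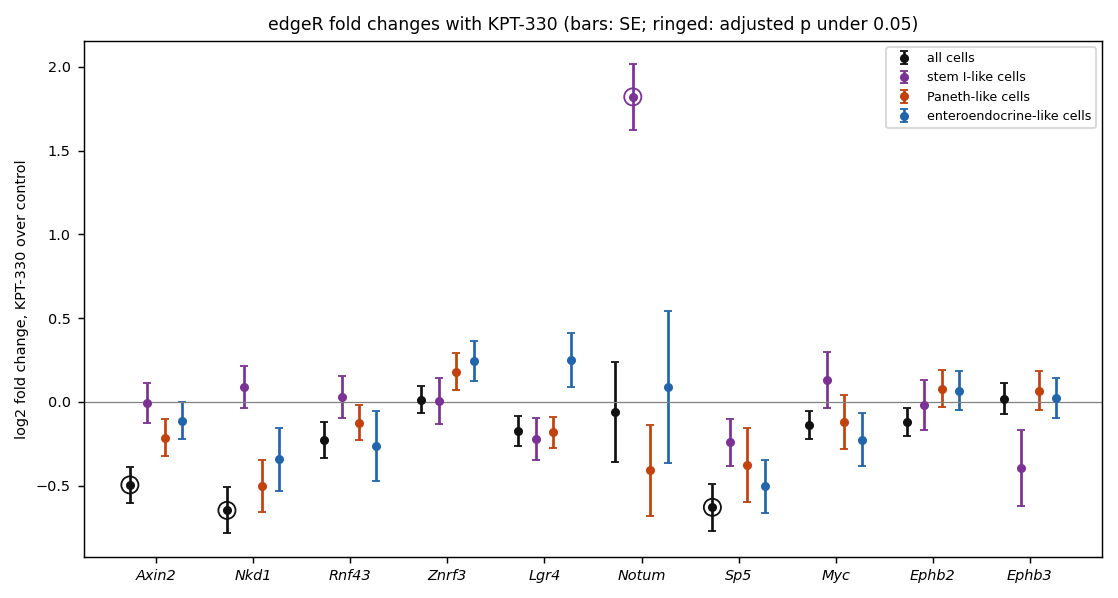
Log2 fold change with KPT-330 (vertical axis, edgeR, bars for the standard error, rings for an adjusted p under 0.05) of each gene (horizontal axis) over all cells and within stem I-like, Paneth-like and enteroendocrine-like cells. Axin2, Nkd1 and Sp5 are ringed over all cells at -0.50, -0.65 and -0.63, and Notum is ringed in stem I-like cells at 1.82.

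Other pathway genes also moved in stem I-like cells. Mmp7 rose by 1.57 (edgeR adjusted p = 7.09e-10) and Odc1 by 1.43, while Tnfrsf19 (-0.69) and Fermt1 (-0.63) fell, which made 2 higher and 2 lower of 19 other known targets, against 3.52% of all genes called in this class. Tnfrsf19 was also among the markers that named it. The inhibitor Apcdd1 was at -1.06, Sox17 at -1.57 and Dvl1, a Dishevelled, at 0.74, and no ligand, receptor or ephrin partner tested there was called. Over all cells of day 6, Mmp7 measured 35.1 to 38.9 UMIs per 10000 in the controls and 49.6 to 61.1 with KPT-330. Whether Mmp7 RNA of other cells was counted in the stem I-like class was not tested.

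The stem III-like class was present at day 0 and later, so the media were also compared within it. All ENR+CD days, the first day among them, were set against day 0 as 1 group, and no fit by window was run in this class. A rise from day 2 on can therefore go uncalled here, as it did over all cells. Over 9 libraries edgeR and DESeq2 called 0 members (0.412% of 9224 genes, 1600 at an unadjusted p under 0.05). Nkd1 was at 3.48 ± 1.10 (edgeR adjusted p = 0.145), Notum at 5.18, Sp5 at 1.46, Rnf43 at 1.13 and Axin2 at 0.65 on the log2 scale, whereas Ephb3 was at -0.54.

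A view that needed no clusters came from splitting the cells of each of the 9 untreated libraries by whether they held an Lgr5 UMI, Lgr5 being the R-spondin receptor that marks crypt base stem cells. Lgr5 is also on the list of other known targets and among the stem I markers. The split thus selects on a Wnt target and is not independent of that class. The 4653 cells with an Lgr5 UMI had a median of 5226 UMIs and the 6393 without had 4658. Of the 10 members 8 were higher in cells with an Lgr5 UMI, against 52.8% of 11193 genes called in either direction and a median log2 ratio of 0.14 over all genes.

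Axin2 averaged 4.36 UMIs per 10000 in cells with an Lgr5 UMI and 1.82 in those without, a log2 ratio of 1.22 ± 0.37 (SD, n = 9 libraries). For Nkd1 these were 2.83 and 0.877 (1.49 ± 0.50), and for Rnf43 2.05 and 0.952 (1.02 ± 0.31). The ratios were 1.05 ± 0.29 for Sp5, 0.78 ± 0.44 for Lgr4, 0.76 ± 0.37 for Znrf3 and 0.39 ± 0.30 for Myc. These 7 genes lay above 0 in each of the 9 libraries. In a two-sided exact permutation test that flips the sign of whole libraries each had p = 0.00391, which is the lowest value this design can give, and 0.0125 after adjustment over all genes.

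Ephb2 was higher in 8 of 9 libraries (0.32, exact p = 0.00781, adjusted p = 0.0194). Ephb3 (0.33, higher in 6 of 9, exact p = 0.0781, adjusted p = 0.118) did not pass the test. Notum (0.82 ± 1.01, exact p = 0.0547, adjusted p = 0.0876) did not pass it either, but the 4 libraries of day 0 and the first day held 1 to 3 Notum UMIs each, with ratios of -0.10 to 0.04. In the 5 libraries of days 2 to 6 its ratios were 0.59, 0.83, 1.36, 2.37 and 2.39, above 0 in 5 of 5, where an exact two-sided permutation test can go no lower than p = 0.0625. After each cell was thinned to 2000 UMIs, which left out 72 cells with and 302 without an Lgr5 UMI, the share of cells with an Axin2 UMI was 24.1 percentage points greater in Lgr5-positive cells, in 9 of 9 libraries, and Ephb3 still did not pass (1.53 points, exact p = 0.281).

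**Figure D5:**
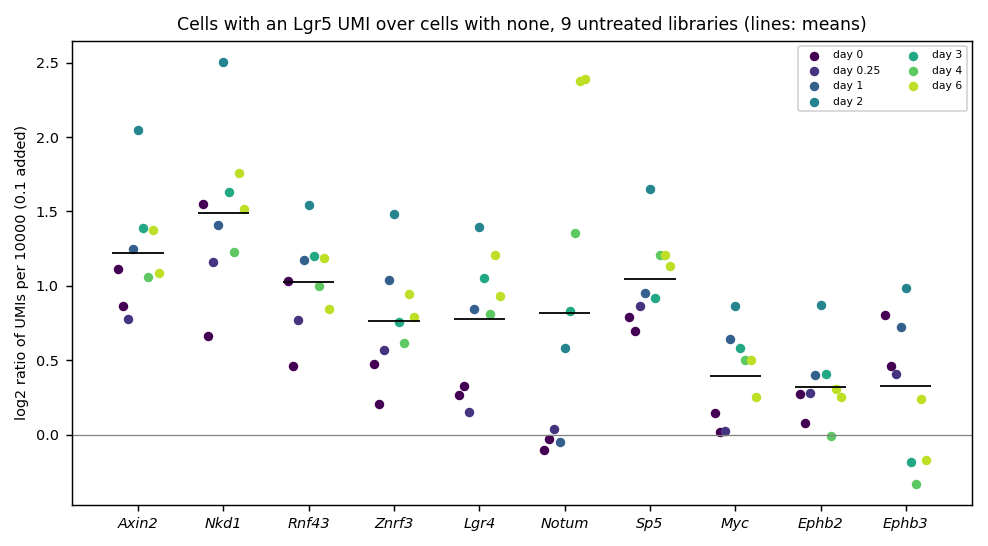
Log2 ratio of each gene's level (vertical axis, UMIs per 10000 with 0.1 added) in cells with an Lgr5 UMI over cells with none, with 1 point per untreated library coloured by day, for each gene (horizontal axis). All 9 points of Axin2, Nkd1, Rnf43, Znrf3, Lgr4, Sp5 and Myc lie above 0, while Ephb3 has 6 of 9 there, and Notum 5 of 5 from day 2 on and 1 of 4 before.

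The same split by Mki67, a marker of cycling cells, was added after the data had been seen and sorted the members in another way. Of the 10, 6 passed the test against 43.1% of all genes, whose median log2 ratio was 0.08. Axin2 (0.42, exact permutation p = 0.00391, adjusted over all genes 0.0142), Myc (0.23, adjusted p = 0.038), Rnf43 (0.20), Ephb2 (0.20) and Lgr4 (0.17) were higher in cells with an Mki67 UMI. Notum was the sixth, lower by 0.44 in the mean (exact permutation p = 0.00781, adjusted p = 0.0227), but no direction is read from that p, since 4 of the 9 libraries held 1 to 3 Notum UMIs. In the 5 libraries of days 2 to 6 its ratios were 0.05, -0.55, -0.89, -1.54 and -0.61, lower in 4 of 5, and 5 libraries cannot give an exact p under 0.0625. The others, Nkd1 (-0.04), Znrf3 (0.03), Ephb3 (-0.07) and Sp5 (0.21), were not called.

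Across the 17 libraries the genes with a course most like that of Axin2 were Cachd1 (Pearson r = 0.951), Plscr3 (0.923), Vim (0.91), Wdr6 (0.905) and Kif12 (0.899), out of 10506 genes ranked on log2 TMM-scaled counts. This is a description over libraries that share days, media and cell makeup, and Cachd1 is also among the markers by which stem I-like clusters were named.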

How the data were processed

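Single cells of organoids from 17 samples had been profiled by the Seq-Well S3 method, in which barcoded beads capture the RNA of single cells in wells. The deposited tables hold UMI counts per gene and cell as the authors made them, and the merged table of the authors names the cells they kept (19877 of 26229 barcodes, all with at least 500 genes and at most 30000 UMIs and 35% mitochondrial UMIs). bcl2fastq is named in the submitters' processing notes, without a version. Groups were taken from the sample titles. The 10 members and the pathway lists were chosen with earlier results of these data known.

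Counts of kept cells were summed per library, or per library and class with at least 20 cells, and tested with edgeR 4.0.16 (TMM, filterByExpr, glmQLFit and glmQLFTest, limma 3.58.1) in R 4.3.3, with Benjamini-Hochberg adjustment over all genes tested and a threshold of 0.05. Time point was a term in the KPT-330 fits. DESeq2 1.42.0 was an alternative. Clusters came from Seurat 5.3.0 with sctransform 0.4.2 (3000 variable genes less the listed ones, 9 components, 20 neighbours, resolution 0.45), and a cluster was named where markers of 1 list led it, with a rule that 1 of them be among its top 10 genes set after the clusters had been seen. No cluster was named early Paneth or goblet. The study's methods state that cells with low housekeeping gene levels and doublets, found by inspection and DoubletFinder, had been removed before deposit, and no further doublet caller was run. The Lgr5 and Mki67 splits used exact sign-flip tests over libraries on log2 ratios with 0.1 UMIs per 10000 added. Their p-values were adjusted over all genes with at least 200 UMIs. The fits were tested on simulated data.

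Named genes were all 10 members, up to 4 called genes of each pathway list by smallest p, and the 5 genes most like Axin2 by Pearson correlation. The alternatives were DESeq2, library totals in place of TMM, no filter on low counts, stricter or looser cell filters, a replicate block, other cluster settings and leaving out libraries. Leaving out libraries in the window and stem I-like fits, the Mki67 split, adjustment of the splits over all genes, and the comparison of classes with its alternatives were added after seeing the data. The number of cells and UMIs per library sets the precision, and the intervals given cover counting error only.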

Additional observations from a re-analysis of the deposited data

Results flagged for a closer look

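The difference with KPT-330 passed a test of its difference between classes for Notum and Nkd1, but only with a class term per time point, and not without some libraries. For Notum, the log2 fold change with KPT-330 was greater in stem I-like than in Paneth-like cells of the same 10 libraries by 2.28 ± 0.34 (edgeR adjusted p = 2.54e-05), and greater than in enteroendocrine-like cells by 2.19 ± 0.40 (adjusted p = 0.00532). For Nkd1 it was greater in stem I-like than in Paneth-like cells by 0.61 ± 0.16 (adjusted p = 0.0269). The Nkd1 values behind this were 0.09 in stem I-like and -0.50 in Paneth-like cells when each class was fitted alone, and neither of those passed its own test. Over the libraries left out in turn, the Notum difference from Paneth-like cells lay between 1.87 and 2.72, and the adjusted p passed 0.05 in each case but that of the day 6 KPT-330 library (2.05, adjusted p = 0.0572). From enteroendocrine-like cells it lay between 0.77 and 2.93, and again passed in each case but that library (0.77, adjusted p = 0.817). The Nkd1 difference lay between 0.48 and 0.79, and its call was lost in 7 of 10 cases (adjusted p up to 0.417). Cases whose library was alone in its arm on a day left out that whole day. With 1 class term for all time points 0 members were called, with Notum at an adjusted p of 0.64 against Paneth-like and 0.905 against enteroendocrine-like cells, and Nkd1 at 0.789 against Paneth-like cells.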

How the results depend on the processing

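Over 9 untreated libraries as 2 groups, DESeq2 called 5 members where edgeR called 0, and leaving out 1 library gave 0 to 7, with 7 without the day 0.25 control. For the windows the range was 4 to 10 at days 2 to 4 (7 with all libraries) and 5 to 9 at day 6 (8). Over all genes the 2-group comparison called 266 genes by edgeR, 2103 by DESeq2 and 4373 without the day 0.25 control, and the cause was not tested. Library totals in place of TMM shifted the median of all genes and gave 7 members lower with KPT-330 in place of 3, 9 at days 2 to 4 and 5 at day 6. These counts have no share of all genes beside them and are not read as a result about the members. Library totals also put Wls at -0.0199 in place of 0.25, and gave 1 member in Paneth-like cells in place of 0. With them 24.1% of called genes were higher in ENR+CD in place of 44.4%, and 38.5% in place of 51.2% at day 6. Leaving out 1 library gave 0 to 3 members with KPT-330 at day 6. With no filter on low counts 1 member passed the test of later days against the first day, 1 in Paneth-like and 1 in enteroendocrine-like cells. For the difference between classes, enteroendocrine-like in place of Paneth-like cells gave 1 member in place of 2, and 1 class term for all time points gave 0. Leaving out 1 library, with its whole day where it was alone in its arm, gave 0 to 2 members there.

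A replicate block gave 0 members for the change of medium, 3 for KPT-330 over all cells, 1 in stem I-like, 0 in enterocyte-like, 1 in Paneth-like and 1 in enteroendocrine-like cells. Days other than 3 and 6 have 1 library per arm, and at day 6 the differences between replicates 1 and 2 in the arms correlated with r = 0.532 over 10516 genes. That is a single pair of differences, so the numbers are taken as names. No block was run for the windows, where the first day has replicate 1 alone and days 2 and 4 have replicate 2 alone.

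Of 2337 values of single genes under an alternative, 108 lost and 51 gained a call, 1 called value changed sign (Wls, above), and 98 changed sign where they were not called. Of the counts of members, those not given above stayed within 1.5 times the reported count.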

Other observations

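Most days had 1 library per arm, so the spread came from a fit across days. Levels are relative to each library's UMIs, and KPT-330 moved the median of all genes by -0.27 on library totals. Day 0 was measured in 2 libraries, and leaving out replicate 2 changed the counts of calls in both later windows. Stem I-like cells numbered 11 in 1 KPT-330 library of day 6, which took no part in the fits within that class. Class names came from markers and clusters made here. Sequences before the start were available for 7 of 10 members, and no other regulatory sequence was searched.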
